A study of Mus musculus with 12 samples.

Results

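T follicular helper (TFH) regulators were followed in CD4+ T cells of C57BL/6 mice: 10 genes, chosen as a named list of transcription factors, receptors and a signalling adaptor, among 26485 gene rows of the count table. The transcription factors were BCL6, TOX2, TOX, MAF, BATF, IRF4 and ASCL2, the receptors CXCR5 and SLAMF6, and the adaptor SH2D1A. All 10 symbols were in the table, and 7 passed the count minimum of at least 10 counts in at least 3 libraries, as did 7465 genes in all. SLAMF6, SH2D1A and ASCL2 lay near the count floor and were not tested.

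The 12 libraries form 4 groups of 3: 4E input, OA input, 4E heavy and OA heavy. Input is total mRNA, and heavy is RNA from the heavy polysomes of a sucrose gradient, where transcripts that carry many ribosomes sediment. Per the labels' protocols, every mouse received AOV alum as immunisation, followed by oral dosing on each of 7 days with 4EGI-1 at 25 mg/kg or with vehicle. 4EGI-1 is a small molecule that keeps the cap-binding factor eIF4E from joining eIF4G. The labels do not spell out the arm names: here 4E is taken to be the 4EGI-1 arm and OA the vehicle arm, from the name OAE in the authors' deposited comparison. The title of 4E heavy replicate 3 marks it as a resubmission. The cells were sorted on CD4 and CD45 and not on TFH markers, so TFH cells are an unmeasured part of each sample, and fewer TFH cells cannot be told apart from less RNA per TFH cell. Whether the replicates are separate mice or repeat preparations is not in the labels, and a p-value here covers no more than the variation among these libraries, which may be technical.

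TFH cells are the CD4+ helper cells that enter B cell follicles and support germinal centres. BCL6 is the repressor that specifies them, and CXCR5 is the chemokine receptor that brings them into the follicle. MAF, BATF, IRF4, TOX, TOX2 and ASCL2 act before or beside BCL6, and SH2D1A (SAP) carries signals from SLAMF6 and its relatives that stabilise contact with B cells. BCL6 and STAT factors bind related sites of the form TTCNNNGAA, and BCL6 is known to bind its own promoter.

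The promoter of Bcl6 is shown because BCL6 is the member whose arms stood apart in both fractions. Taken 1 fraction at a time, 7.41% of all genes in input and 8.12% in heavy were likewise lower in 4E with no overlap. The share that did so in both fractions was not computed. RefSeq windows (GRCm38.p6) were at hand for 6 of the 10 members, BCL6, TOX2, BATF, IRF4, SLAMF6 and ASCL2, and not for CXCR5, TOX, MAF and SH2D1A. Bcl6 has 2 windows, each the 250 bases before a transcript start on the minus strand, with matches to TTCNNNGAA in capitals.
Bcl6, chr16:23988853-23989102: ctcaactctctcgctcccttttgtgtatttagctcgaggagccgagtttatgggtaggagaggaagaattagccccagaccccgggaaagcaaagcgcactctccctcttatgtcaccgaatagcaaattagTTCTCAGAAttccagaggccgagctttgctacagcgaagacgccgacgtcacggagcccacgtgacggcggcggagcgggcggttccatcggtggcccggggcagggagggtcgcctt
Bcl6, chr16:23981284-23981533: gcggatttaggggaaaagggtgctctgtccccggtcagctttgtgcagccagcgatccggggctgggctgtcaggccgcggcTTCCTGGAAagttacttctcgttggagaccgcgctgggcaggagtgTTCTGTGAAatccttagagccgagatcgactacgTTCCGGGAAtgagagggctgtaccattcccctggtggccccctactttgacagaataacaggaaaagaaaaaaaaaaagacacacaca
The window before the outer start held 1 match, which begins 118 bases before the start. The window before the inner start held 3, which begin 168, 122 and 88 bases before it. The motif is its own reverse complement in form, so both strands were read at once, and no matches overlapped. Of 32851 windows of this length in the RefSeq table, 7.02% held at least 1 match and 0.0274% held 3 or more. None of the 9 windows of TOX2, BATF, IRF4, SLAMF6 and ASCL2 held these letters. The AP-1 letters TGANTCA, present in 6.75% of all windows, were in no window of a member. The TCF and LEF letters CTTTGA, searched on both strands and present in 13.8% of all windows, were in the inner window of Bcl6 and in 2 overlapping windows of Tox2. A match describes the letters only and is not evidence of binding.

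Counts in genes ranged from 691449 to 1906657 per library. Small noncoding RNAs held 10.6% to 17.0% of them in 4E heavy and 3.17% to 12.1% in OA heavy, against 75.2% to 78.3% in 4E input and 33.6% to 74.9% in OA input. Levels are CPM, counts scaled to library size after TMM composition scaling, and a count of 3, taken as the floor, equals 6.46 to 6.77 CPM in 4E input, 1.18 to 5.07 CPM in OA input, 1.85 to 2.66 CPM in 4E heavy and 0.774 to 1.92 CPM in OA heavy. Floors and intervals from counts cover counting error only. OA replicate 1 stood apart, with the deepest library of each fraction and the least small noncoding RNA. The symbols are human in style: 6857 of the 7465 tested matched a mouse symbol with case ignored, and 10 rows of MTRNR2L genes, a human gene family, held 85609 counts. A low count of a gene therefore need not mean a low transcript level, and levels are compared between libraries only. Of the T cell markers, 10 of 11 in the table had counts, while CD3D was at 0 in every library and CD4 had 100 counts in all, none of them in 4E input.

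BCL6 was lower in every 4E library than in every OA library of the same fraction. Each fraction taken alone, 7.41% of all genes did the same in input and 8.12% in heavy. In input BCL6 measured 40.9, 63.1 and 65.7 CPM in 4E replicates 1, 2 and 3, against 95.4, 70.9 and 72.7 CPM in OA. In heavy polysomes it measured 47.5, 50.5 and 63.9 CPM in 4E, against 91.9, 77.8 and 76.7 CPM in OA. The groups did not overlap in either fraction, and the gap was narrower in input, where 65.7 CPM in 4E replicate 3 lay close to 70.9 CPM in OA replicate 2. The means were 56.6 ± 13.6 CPM in 4E and 79.7 ± 13.7 CPM in OA for input (SD, n = 3 each), a log2 difference of -0.51 (SE 0.27). For heavy polysomes they were 54.0 ± 8.74 CPM in 4E and 82.1 ± 8.48 CPM in OA (SD, n = 3 each), a log2 difference of -0.61 (SE 0.24). Neither passed the threshold of 0.05 in edgeR's quasi-likelihood test (adjusted p = 0.524 in input and 0.569 in heavy, unadjusted p = 0.0715 and 0.0213). Setting OA replicate 1 aside cannot make groups overlap that already stood apart, so the lack of overlap in BCL6 then adds nothing. Of all genes, 11.3% in input and 11.5% in heavy were then lower in 4E with no overlap. With OA replicate 1 set aside, the log2 differences of BCL6 were -0.35 (SE 0.30) in input and -0.55 (SE 0.25) in heavy. Without 4E input replicate 1 its input difference was -0.32 (SE 0.29).

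TOX2, an HMG-box factor that supports BCL6 expression in TFH cells, was lower in every 4E heavy library than in every OA heavy library. The same held for 8.12% of all genes. In heavy polysomes TOX2 measured 6.78, 11.7 and 4.44 CPM in 4E replicates 1, 2 and 3, against 23.7, 25.6 and 24.3 CPM in OA. The OA heavy libraries were close to each other and all above the highest 4E heavy library. The log2 difference was -1.64 (SE 0.56, 95% interval -2.82 to -0.46, adjusted p = 0.569 and unadjusted p = 0.00892 in edgeR). In input TOX2 rested on few reads, with 0, 3 and 8 counts in 4E against 52, 6 and 12 in OA. The input groups overlapped, since 17.5 CPM in 4E replicate 3 exceeded 9.67 CPM in OA replicate 2, and the log2 difference of -1.09 had an SE of 0.69 (adjusted p = 0.602). The input difference was -0.50 without 4E input replicate 1 and -2.35 without 4E input replicate 3. Without OA replicate 1 in both fractions the heavy difference was -1.69 (SE 0.61).

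CXCR5 had lower means in 4E, from few reads and with overlapping groups. In input it had 1, 3 and 0 counts in 4E replicates 1, 2 and 3, against 41, 6 and 4 counts in OA. These stand for 2.15, 6.77 and 0 CPM in 4E and for 16.1, 9.67 and 6.76 CPM in OA, and the 4E mean lies under the floor. The 4E libraries were all at or under 3 counts, and 4E replicate 2 matched OA replicate 3 in level. Pooled over the libraries of a group, the input ratio of 4E to OA was 0.216 (95% exact binomial interval 0.0567 to 0.588, counting error only), and edgeR gave a log2 difference of -1.95 (SE 0.82, adjusted p = 0.420, unadjusted p = 0.0276). In heavy polysomes CXCR5 measured 6.17, 6.78 and 11.5 CPM in 4E and 20.6, 13.9 and 10.9 CPM in OA, with a log2 difference of -0.93 (SE 0.56, adjusted p = 0.668). With 1 library left out at a time, the input difference ranged from -3.32 without 4E input replicate 2 to -1.38 without 4E input replicate 3, and the heavy difference was -0.63 without OA heavy replicate 1.

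**Figure D1:**
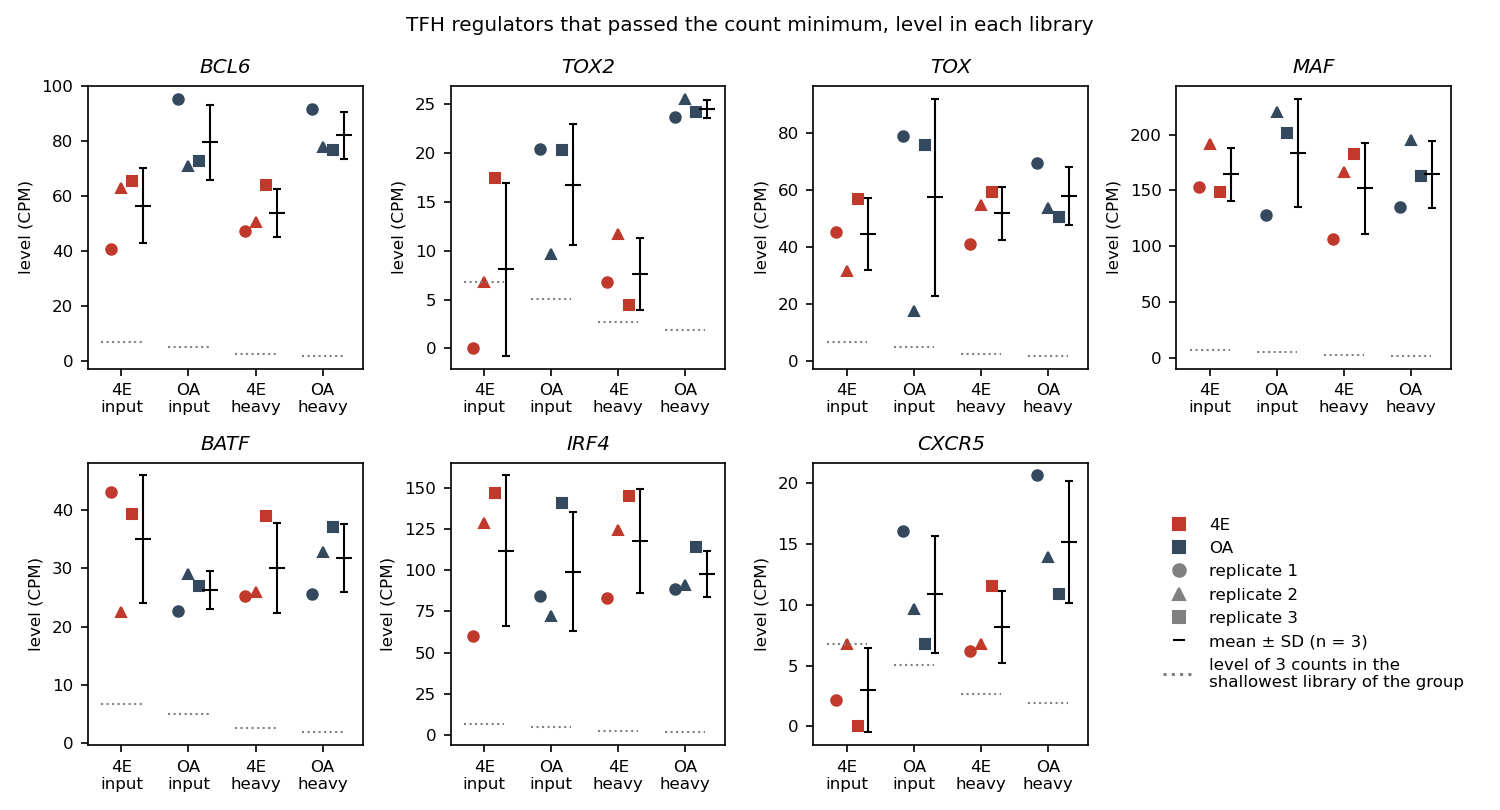
Level in CPM of the 7 TFH regulators tested, with 1 marker per library, groups along the horizontal axis (4E input, OA input, 4E heavy, OA heavy), mean ± SD beside the markers (n = 3) and the level of 3 counts as a dotted line. BCL6 stays at or under 65.7 CPM in the 4E libraries and at or above 70.9 CPM in the OA libraries, and TOX2 splits the same way in heavy polysomes only. Of all genes, 7.41% in input and 8.12% in heavy were lower in 4E with no overlap.

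The other 4 factors tested had overlapping arms in both fractions. MAF, which drives IL-21 and CXCR5 expression in helper cells, measured 164 ± 23.7 CPM in 4E and 183 ± 48.7 CPM in OA for input, and 152 ± 40.6 CPM in 4E and 164 ± 30.1 CPM in OA for heavy (SD, n = 3 each). Its log2 differences of -0.14 in input (95% interval -0.69 to 0.41) and -0.11 in heavy (-0.64 to 0.41) were both smaller than their errors (SE 0.26 in input and 0.25 in heavy). With OA replicate 1 set aside, the input groups of MAF did not overlap, as for 11.3% of all genes, with at most 192 CPM in 4E and at least 201 CPM in OA. TOX, the relative of TOX2, was uneven in OA input, at 78.9, 17.7 and 76.1 CPM, so its mean of 44.6 ± 12.7 CPM in 4E input stood against 57.6 ± 34.6 CPM in OA input. The log2 difference of TOX in input was -0.41 (SE 0.41). In heavy polysomes TOX ranged from 41.3 to 59.5 CPM in 4E and from 50.5 to 69.4 CPM in OA, and its log2 difference was -0.17 (SE 0.36).

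BATF and IRF4 bind DNA together at composite sites in activated T cells and are needed before BCL6 appears. IRF4 measured 60.3, 129 and 147 CPM in 4E input, against 84.4, 72.5 and 140 CPM in OA input. In heavy polysomes it measured 83.3, 124 and 145 CPM in 4E and 88.5, 91.2 and 114 CPM in OA. Replicate 3 was the highest in all 4 groups, and the log2 differences were 0.19 (SE 0.32) in input and 0.26 (SE 0.30) in heavy. BATF measured 43.1, 22.6 and 39.4 CPM in 4E input and averaged 26.3 ± 3.19 CPM in OA input (SD, n = 3). In heavy polysomes it averaged 30.1 ± 7.79 CPM in 4E heavy and 31.8 ± 5.81 CPM in OA heavy (SD, n = 3 each). Its log2 differences were 0.44 in input (95% interval -0.32 to 1.20) and -0.08 in heavy (-0.75 to 0.59). These intervals do not show that the arms were alike.

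Across the members, edgeR called 0 of 7 in input and 0 of 7 in heavy at an adjusted p under 0.05, where it called 0% of all 7465 genes in each fraction. DESeq2 called 3 genes in input and 1 in heavy, and no member. At an unadjusted p under 0.05, CXCR5 alone of the 7 stood out in input, where 10.5% of all genes did so and 6.05% with a lower level, and BCL6 and TOX2 in heavy, where 8.2% did and 4.39% with a lower level. BCL6 was lower with no overlap of its groups in input, as were 7.41% of all genes, and BCL6 and TOX2 in heavy, as were 8.12%. The log2 difference was below 0 for 5 of 7 members in input (median -0.41) and for 6 of 7 in heavy (median -0.17), against medians of -0.05 and -0.0026 over all genes and shares below 0 of 52.9% and 50.2%. With 7 genes, of which CXCR5 and TOX2 met the count minimum in only 7 of 12 libraries, these counts describe the list and set nothing apart.

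**Figure D2:**
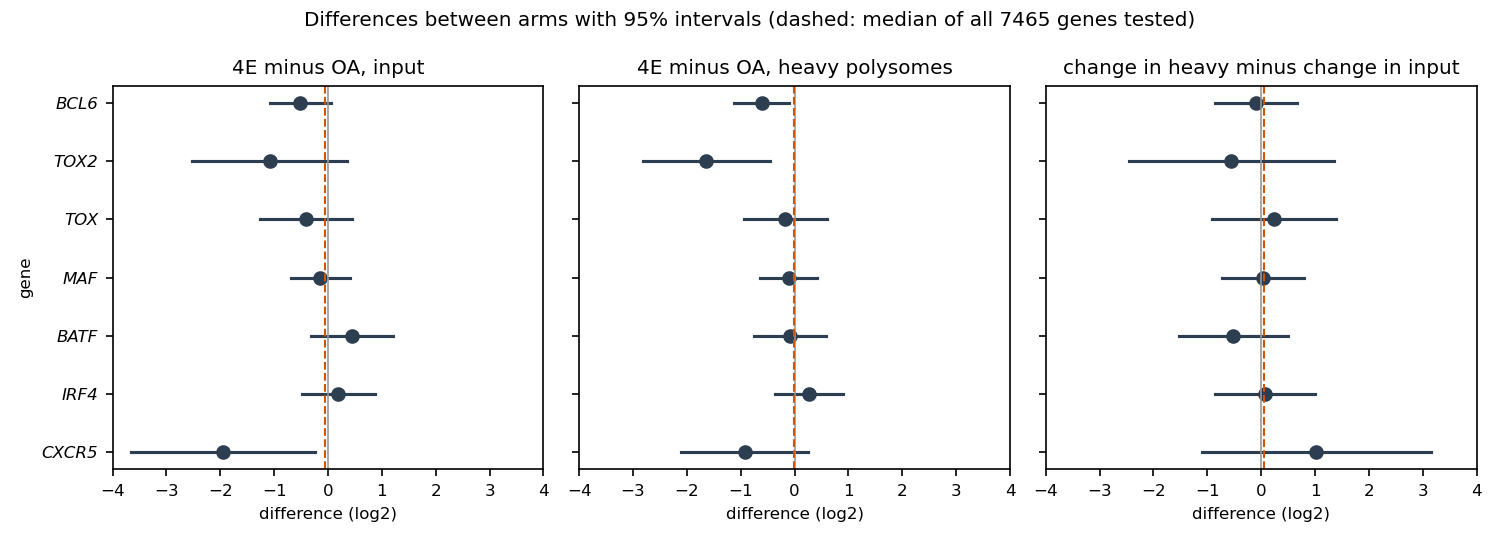
Log2 differences of the 7 tested regulators with 95% intervals from the fit over all genes: 4E minus OA in input (left), 4E minus OA in heavy polysomes (middle) and the heavy difference minus the input difference (right), the dashed line being the median of all 7465 genes. The intervals of CXCR5 in input, and of BCL6 and TOX2 in heavy, lie wholly below 0 before adjustment, and all 7 on the right span 0.

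The change in polysomes beyond that in total mRNA was tested as an interaction, which asks whether polysome association differed between arms. Without a block, no member was called (0 of 7 in edgeR, 0% of all genes), and no member had an unadjusted p under 0.05, as 2.14% of all genes did. With the cell source, the arm and replicate number that heavy and input libraries share in their names, as a block, edgeR called 10 of all genes and no member. For BCL6 the heavy difference was -0.10 beyond the input difference (SE 0.36, 95% interval -0.86 to 0.66), and for MAF 0.03 (SE 0.36, -0.73 to 0.79). That value was -0.52 for BATF (SE 0.48), 0.24 for TOX (SE 0.55) and 0.08 for IRF4 (SE 0.44). For TOX2 it was -0.56 (SE 0.91), and for CXCR5 1.02 (SE 1.01). The intervals of TOX2 (-2.46 to 1.34) and CXCR5 (-1.10 to 3.14) are the widest of the 7. A difference in polysome association anywhere within them was not excluded.

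Within an arm, heavy polysomes were compared with input on the same scale. In the edgeR fit without a block, no member was called in 4E (0.938% of all genes) or in OA (0.683%). In that fit no member had an unadjusted p under 0.05, as 5.59% and 2.17% of all genes did. With the block by cell source edgeR called 109 of all genes in 4E and 90 in OA, against 70 and 51 without it, and no member in either arm. BCL6 had a log2 difference, heavy minus input, of -0.07 (SE 0.27) in 4E and 0.03 (SE 0.24) in OA, MAF of -0.12 (SE 0.26) in 4E and -0.14 (SE 0.25) in OA, and IRF4 of 0.07 (SE 0.32) in 4E and -0.01 (SE 0.31) in OA. CXCR5, with 4 counts in all of 4E input, had one of 1.42 (SE 0.83) in 4E and 0.40 (SE 0.56) in OA. TOX had one of 0.21 (SE 0.41) in 4E and -0.02 (SE 0.37) in OA. BATF had one of -0.23 (SE 0.35) in 4E and 0.29 (SE 0.33) in OA, and TOX2 one of -0.05 (SE 0.72) in 4E. TOX2 was higher in each OA heavy library (23.7 to 25.6 CPM) than in each OA input library (9.67 to 20.4 CPM), as were 4.19% of all genes in OA, with a log2 difference of 0.51 (SE 0.54). These values are relative to the typical gene: without composition scaling the median of all genes was 1.96 in 4E and 1.23 in OA, and BCL6 stood at 1.86 and 1.20.

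SLAMF6, SH2D1A and ASCL2 had too few reads to reach the count minimum. SLAMF6, the SLAM family receptor Ly108, had 2, 0 and 0 counts in 4E input against 4, 6 and 5 in OA input, and 4, 4 and 0 counts in 4E heavy against 7, 2 and 6 in OA heavy. Pooled over libraries, its ratio of 4E to OA was 0.367 in input (95% exact binomial interval 0.0407 to 1.58) and 0.883 in heavy (0.324 to 2.22), counting error only. SH2D1A had 0 counts in all 3 libraries of 4E input against 1, 2 and 1 in OA input, and no ratio is given because the OA level lies under the level of 3 counts in 4E. In heavy polysomes SH2D1A had 2, 0 and 0 counts in 4E against 11, 4 and 2 in OA, a pooled ratio of 0.195 (0.0218 to 0.821), and 11 of the 17 OA counts came from replicate 1. That interval leaves out the variation between libraries. The edgeR fit with no filter, which includes it, gave a log2 difference of -2.10 (SE 1.57, 95% interval -5.18 to 0.98). ASCL2, a basic helix-loop-helix factor that induces CXCR5, had 1 count in the 12 libraries together, in OA input replicate 1.

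**Figure D3:**
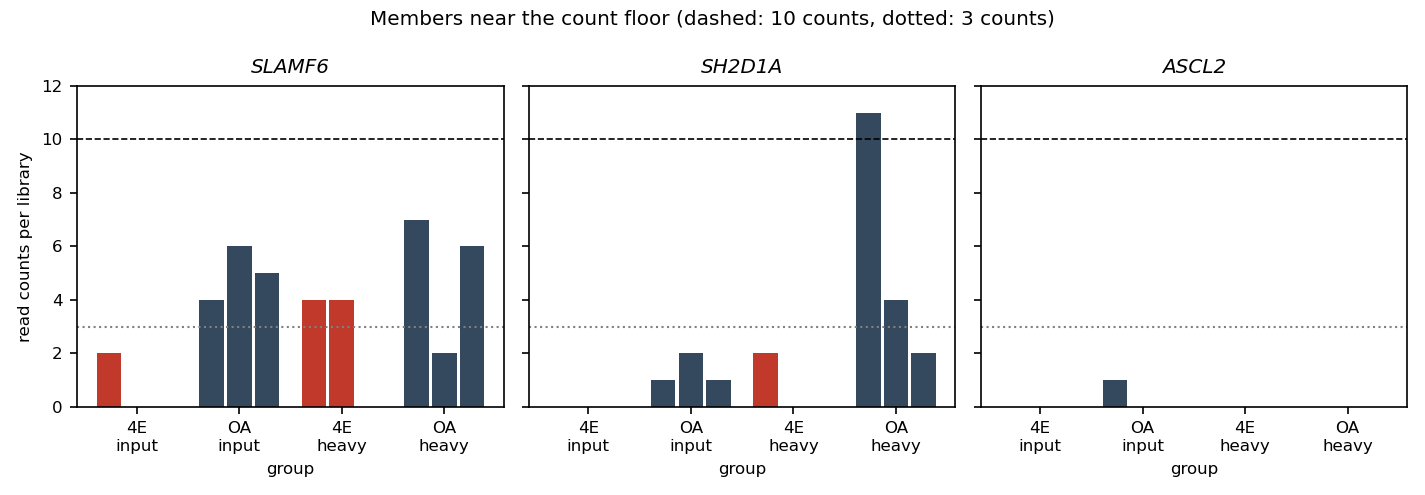
Read counts per library, not scaled for depth, of SLAMF6, SH2D1A and ASCL2 in 4E input, OA input, 4E heavy and OA heavy, with 1 bar per library in the order of replicates 1 to 3 and lines at 10 counts (the minimum) and 3 counts (the floor). Only SH2D1A in OA heavy replicate 1, with 11 counts, passes 10.

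The authors' deposited table of 4E against OA lists 9 of the 10 members, all but ASCL2. It classes CXCR5 as changed in transcription alone (log2 -1.90, p = 0.0136, adjusted p = 0.495), a class that holds 5.69% of the 11226 genes listed in the authors' deposited table. The authors' deposited table classes SH2D1A as changed in translation alone (log2 -1.96 in heavy, p = 0.0219, adjusted p = 0.547), a class with 5.94% of them. SH2D1A had 2 counts in 4E heavy and 17 in OA heavy. The other 7 members have the class none in the authors' deposited table, with BCL6 at log2 -0.55 in input and -0.63 in heavy and TOX2 at -1.67 and -1.75.

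Other genes of the TFH pathway were read from lists. In each list 0 tested genes were called in edgeR in either direction, and at an unadjusted p under 0.05 the background in 4E against OA is 10.5% in input and 8.2% in heavy. Of 18 surface and cytokine genes 7 were tested, and 4 of 7 were lower in 4E input (median log2 difference -0.88) and 5 of 7 in 4E heavy (-0.34). PDCD1, with 9 counts in all, ICOS with 20 and IL21 with 7 stayed under the minimum, and IL4 and CXCL13 were at 0. TNFSF8, the CD30 ligand, measured 6.61 ± 3.83 CPM in 4E input and 16.5 ± 7.26 CPM in OA input (SD, n = 3 each, unadjusted p = 0.0468 in the fit with edgeR). Of 16 other transcription factors that favour TFH cells 15 were tested, with 10 of 15 higher in 4E input (median 0.33) and 7 of 15 in 4E heavy (-0.03).

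LEF1, which acts with TCF7 ahead of BCL6, stood at 435 ± 23.2 CPM in 4E and 287 ± 6.19 CPM in OA for input, and at 363 ± 15.5 CPM in 4E and 256 ± 17.3 CPM in OA for heavy (SD, n = 3 each). Its log2 differences were 0.60 (SE 0.18, edgeR unadjusted p = 0.00343, adjusted p = 0.354) and 0.50 (SE 0.17, unadjusted p = 0.00954, adjusted p = 0.569), the opposite direction to BCL6. The histone demethylase KDM6B (0.68 in input and 0.53 in heavy) and STAT3, the mediator of IL-6 and IL-21 signals (0.62 in heavy), had higher means in 4E at an unadjusted p under 0.05 as well. Between fractions, NFATC2 had a log2 difference, heavy minus input, of -0.58 in 4E (SE 0.24, edgeR unadjusted p = 0.0265, adjusted p = 0.778). ID3 had one of 0.93 in OA (SE 0.33, edgeR unadjusted p = 0.0121, adjusted p = 0.99998). Neither was called, and 5.59% of all genes in 4E and 2.17% in OA had an unadjusted p under 0.05.

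Genes that oppose TFH cells were split evenly, with 10 of 17 tested lower in 4E input (median log2 difference -0.06) and 8 of 17 in 4E heavy (0.03). STAT5A, which carries the IL-2 signal that restrains BCL6, had a log2 difference of 0.81 in input (SE 0.26), STAT5B one of 0.66 in heavy (SE 0.27), and the helix-loop-helix inhibitor ID2 one of 1.01 in input (SE 0.41). RC3H2, a Roquin protein that degrades ICOS mRNA, had one of -0.81 in input (SE 0.27). PRDM1, which represses BCL6 and is repressed by it, was chosen after its values were seen and had one of 0.56 in input (SE 0.59) and 0.03 in heavy (SE 0.55).

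SLAM and SAP signalling had 6 of 11 genes tested, 4 of 6 lower in 4E input (median -0.09) and 3 of 6 in 4E heavy (0.04). Its named genes were PTPN11 (log2 -1.35 in input) and INPP5D (0.58) and LY9 (0.91) in heavy. The AP-1 and IRF partners of BATF and IRF4 had 9 of 11 tested, 6 of 9 lower in 4E input (-0.05) and 7 of 9 in 4E heavy (-0.09), with FOS at -0.51 and FOSL2 at 0.60 in heavy. BCL6 corepressors had 11 of 11 tested, 8 of 11 lower in 4E input (-0.11) and 6 of 11 in 4E heavy (-0.08). TBL1XR1, a subunit of the NCoR complex, had log2 differences of -0.93 in input and -0.89 in heavy, and HDAC5 one of 0.59 in heavy.

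**Figure D4:**
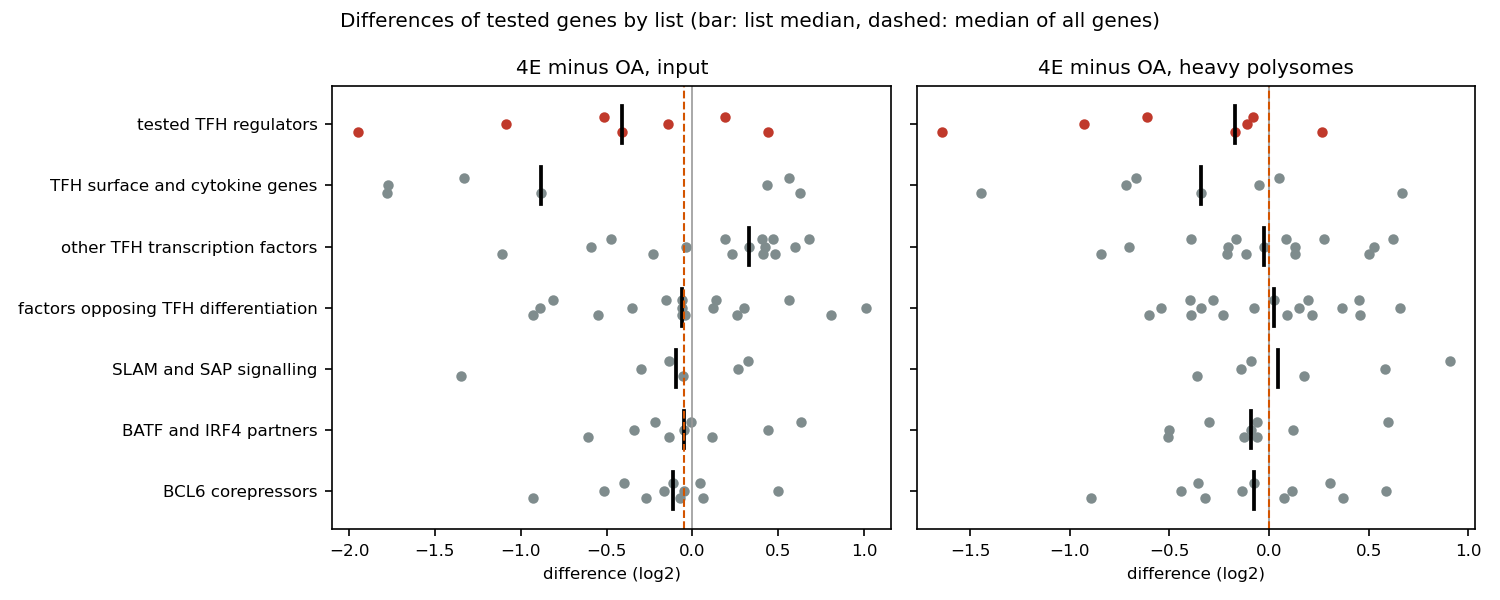
Log2 differences, 4E minus OA, of the tested genes of 7 lists in input (left) and heavy polysomes (right), each point a gene, each bar the list's median and the dashed line the median of all genes. Points of each list lie on both sides of 0, and the regulators' median stands at -0.41 in input and -0.17 in heavy.

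Other cells in the sort could also carry some of these transcripts, since B cells express BCL6, CXCR5, IRF4 and BATF. All 12 B cell markers had counts, 6 were tested, and their summed level ran from 157 to 350 CPM in 4E input against 92.7 to 237 CPM in OA input, and from 98.7 to 350 CPM in 4E heavy against 86.2 to 293 CPM in OA heavy. That sum was lowest in replicate 1 and highest in replicate 3 in all 4 groups, and its mean was higher in 4E than in OA in both fractions. IRF4 was likewise highest in replicate 3 in all 4 groups. The means of IRF4 were also higher in 4E in both fractions, that of BATF was higher in 4E input and lower in 4E heavy, and those of BCL6 and CXCR5 were lower in 4E in both. T cell markers summed to 678 to 946 CPM in 4E input against 783 to 1240 CPM in OA input, and to 870 to 1088 CPM in 4E heavy against 777 to 1251 CPM in OA heavy, highest in replicate 1 in all 4 groups. That sum rests mostly on PTPRC (8791 counts) and LCK (5355 counts). PTPRC encodes CD45, which is not particular to T cells, so the sum does not measure T cell content alone. Of 9 T cell markers tested, 7 were lower in 4E input (median log2 difference -0.52, 2 of them at an unadjusted p under 0.05 in edgeR) and 6 in 4E heavy (-0.40, with 1 higher at that p). Over all genes, 52.9% were below 0 in input and 50.2% in heavy, and 10.5% and 8.2% had such a p. The 2 were CD28 and CD4, and CD4 reached 10 counts in only 3 libraries. The CD4 mean of 5.53 CPM in OA input lies under the level of 3 counts in 4E input (6.46 to 6.77 CPM). Stromal and endothelial markers (6 of 7 with counts, DCN at 0) summed to 41.6 to 56.0 CPM in 4E input against 73.4 to 558 CPM in OA input, and to 25.3 to 44.4 CPM in 4E heavy against 63.0 to 503 CPM in OA heavy. Myeloid markers (9 of 10 with counts, S100A8 at 0) summed to 19.4 to 54.7 CPM in 4E input against 30.4 to 62.9 CPM in OA input, and to 14.8 to 29.3 CPM in 4E heavy against 43.9 to 94.5 CPM in OA heavy. The stromal and endothelial sums did not overlap between the arms in either fraction, and the myeloid sums did not overlap in heavy. Of single genes, 7.41% in input and 8.12% in heavy were lower in 4E with no overlap. Most stromal and endothelial counts were of COL1A1 (1032), COL1A2 (602) and COL3A1 (455), against 95 each of PECAM1 and VWF. PECAM1 had log2 differences of 0.19 in input and 0.16 in heavy, and VWF of -1.47 and -0.76. Among myeloid markers, MPO had log2 differences of -3.33 and -4.13, CSF1R of -0.44 and -0.62, and SPI1 of 0.68 and -2.02. The part of other cells in the values of the TFH regulators was not tested.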

How the data were processed

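RNA sequencing counts of 12 libraries were used. The authors deposited whole-number counts per gene symbol. The table is named as normalised, but its columns sum to different totals and it has rows for unassigned and ambiguous reads (16.4% to 31.4% of a library together), which were left out. The submitters' processing notes name Bowtie and mm9. Neither the counting tool nor its gene models were given in the sources used. The authors' deposited comparison holds log2 fold changes, p-values and a class per gene and entered no test. No columns belonged to other samples.

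Genes reaching 10 counts in 3 or more libraries were fitted together with edgeR 4.0.16 in R 4.3.3 (TMM, glmQLFit and glmQLFTest, 4 group means without a block), and p-values were adjusted by Benjamini-Hochberg across all 7465 of them, with calls at 0.05. SE and 95% intervals came from that fit. In a run on simulated data, changes were placed only in better-counted genes, and calls were checked but not SE or intervals. Sparse members were given pooled ratios with exact binomial intervals. DESeq2 1.42.0, other scalings and filters, replicate blocks and libraries left out were alternatives. All members were named in each contrast, and of each other TFH list those with an unadjusted p under 0.05, at most 3 per contrast. Marker lists of cell types were given by their summed level, and 1 such list is not reported here. Members and lists were chosen with earlier results of these data known.

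Heavy and input libraries of an arm share a name stem and number in their titles, which ties them to 1 cell source. Their deviations from the group means correlated at 0.138 to 0.669 in OA and at 0.0162 to 0.100 in 4E. The fit without a block was kept, and counts with the block by cell source are given beside the heavy against input and interaction results. The SE, intervals and unadjusted p-values printed for those results come from the fit without a block, which ignores the shared cell source. Between arms, same-numbered libraries correlated at 0.0425 to 0.109 in input and 0.0152 to 0.279 in heavy, and these numbers were not taken as pairs.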

Additional observations from a re-analysis of the deposited data

How the results depend on the processing

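No member passed an adjusted p of 0.05 in 4E against OA or in the interaction under any of the 21 alternatives, and BCL6, CXCR5 and TOX2 were lower in 4E in both fractions in each that tested them (lowest adjusted p 0.0831). Without composition scaling, under which the median of all genes stood at -0.92 in 4E against OA input, 7 members were called higher in heavy than in input in 4E and 4 in OA, among 5959 genes called higher and 57 lower in 4E and 2959 higher and 48 lower in OA, where scaling gave 0 higher and 70 and 51 lower. BATF (-0.37) and IRF4 (-0.63) then turned lower in 4E input, the interaction turned positive for BCL6 (0.66), TOX2 (0.20) and BATF (0.12), and heavy minus input turned positive for BCL6 (1.86), TOX2 (1.85), MAF (1.81) and BATF (1.68) in 4E and for TOX (1.06), MAF (1.24) and IRF4 (1.28) in OA. Other settings reversed further values. With no filter they were TOX2 in heavy minus input of 4E (0.016), and TOX (0.0054) and IRF4 (0.032) in that of OA. With a filter of 50 counts, under which CXCR5 and TOX2 were not tested, they were MAF in the interaction (-0.0082) and IRF4 in OA (0.0071). Without OA replicate 1 in both fractions it was TOX in OA (0.17).

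The replicate block by number reversed MAF in the interaction (-0.012), TOX (0.041) and IRF4 (0.0029) in OA, and the block by cell source (arm and number) reversed MAF (-0.017), TOX2 in 4E (0.038), TOX (0.076) and IRF4 (0.020) in OA. Neither block called a member. Calls over all genes went to 71 in input and 27 in heavy with the block by number, where 0 were called without it, and to 109 in heavy minus input of 4E and 90 in OA by cell source, against 70 and 51, with 10 in the interaction. With no filter they were 113 in input, 50 in heavy, 4 in the interaction and 80 in heavy minus input of OA, and without OA replicate 1 in both fractions 17 in input and 8 in heavy. Heavy minus input gave 8 calls in 4E and 5 in OA without small noncoding RNAs, 43 and 32 with a filter of 50 counts, and 12 in OA from the compared groups alone. Leaving out 1 library gave up to 14 calls in input and 4 in heavy.

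With each library left out in turn, 4E minus OA ranged in input from -0.058 to 0.50 for IRF4 and from -0.37 to 0.018 for MAF, and in heavy from -0.27 to 0.091 for MAF and from -0.30 to 0.037 for BATF. The interaction ranged from -0.29 to 0.021 for BCL6, -1.14 to 0.70 for TOX2, -0.12 to 0.63 for TOX, -0.13 to 0.24 for MAF and -0.23 to 0.32 for IRF4. Heavy minus input in 4E ranged from -0.26 to 0.049 for BCL6, -0.64 to 1.21 for TOX2, -0.27 to 0.083 for MAF and -0.23 to 0.31 for IRF4, and in OA from -0.079 to 0.20 for BCL6, -0.41 to 0.32 for TOX, -0.37 to 0.014 for MAF and -0.17 to 0.30 for IRF4. The cause of these moves was not tested. Few reads limit CXCR5, TOX2 and the 3 sparse members most, above all in 4E input. The 4E input libraries held 234318 to 250072 counts outside small noncoding RNAs, against 305213 to 1258122 in OA input.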

Other observations

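Relatives of the regulators were also read in 4E against OA, where 7 of 11 listed paralogs and chemokine receptors were tested and edgeR called 0 of them. Of these 6 of 7 were higher in 4E input (median log2 difference 0.10) and 5 of 7 in 4E heavy (0.20). The small Maf proteins lack the activation domain of MAF: MAFG stood at 37.3 ± 15.1 CPM in 4E input and 16.9 ± 13.6 CPM in OA input, and MAFF at 140 ± 32.9 CPM in 4E heavy and 89.3 ± 21.7 CPM in OA heavy (SD, n = 3 each). CXCR4, the receptor that draws cells to the dark zone of germinal centres, stood at 86.5 ± 10.5 CPM in 4E heavy and 142 ± 82.5 CPM in OA heavy (SD, n = 3 each). In 4E it had a log2 difference, heavy minus input, of -0.81 (SE 0.36, edgeR unadjusted p = 0.0341, adjusted p = 0.827).

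Plasma cell markers summed to 75.4 to 94.1 CPM in 4E input against 62.8 to 80.6 CPM in OA input, and to 54.3 to 104 CPM in 4E heavy against 65.0 to 107 CPM in OA heavy, with 4 of 5 holding counts. Of 6 CD8 T and NK cell markers 4 were at 0, and the sum did not pass 5.07 CPM in any library. That highest sum was 3 counts, in OA input replicate 3. CD3D was also at 0 in every library of these T cells, so such zeros do not show that CD8 T and NK cells were absent.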
